A study of Mus musculus with 2 samples.

Results

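The 7 genes described, called the members, are Prkg1 and Prkg2, which encode the cGMP-dependent protein kinases PKGI and PKGII, and Vasp, Mrvi1 (Irag1), Ppp1r12a, Kcnma1 and Pde5a, which encode well known substrates of PKGI. Members were taken by gene name among the non-control spots, and each probe was kept apart, which gave 7 of 19505 named genes, read by 14 of the 41174 gene probes. The RNA came from C57BL/6N mice and was compared on 2 two-colour arrays, each carrying 1 sample from a mouse lacking PKGI (PKGI-/-, called KO) and 1 from a wild type (WT) littermate. The tissue array compared untreated brown adipose tissue, with KO in Cy5 and WT in Cy3, and the adipocyte array compared brown adipocytes differentiated in culture from preadipocytes of that tissue, with KO in Cy3 and WT in Cy5. With 1 array per comparison and no dye swap there was no replicate and no test, so the values describe these arrays and dye bias of single probes was not tested. Ages are not given in the sources used here, nor is the piece of Prkg1 removed in the KO, so whether a Prkg1 probe lies inside it is not known.

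PKGI is the main receptor kinase for the second messenger cGMP in smooth muscle, platelets and many other cells. Nitric oxide raises cGMP through soluble guanylyl cyclase, and natriuretic peptides raise it through membrane receptors that are cyclases themselves. PKGI acts by phosphorylating proteins, so the mRNA of a substrate is not a readout of kinase activity, and in brown fat the kinase is known for promoting adipocyte differentiation and thermogenesis.

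Prkg1 is transcribed from separate promoters that give the PKGIα and PKGIβ forms, which differ at the amino terminus. The RefSeq promoter table (GRCm38.p6) held 8 windows for 6 of the 7 members, and both windows of Prkg1 are printed to show that this gene, the one deleted, has distinct starts that no array probe is annotated to tell apart. Each is the 250 bases before a start, 5′ to 3′ on the minus strand, and capitals mark a GC box (GGGCGG on either strand), a motif bound by Sp1-type factors.
Prkg1 start at chr19:31765034-31765283: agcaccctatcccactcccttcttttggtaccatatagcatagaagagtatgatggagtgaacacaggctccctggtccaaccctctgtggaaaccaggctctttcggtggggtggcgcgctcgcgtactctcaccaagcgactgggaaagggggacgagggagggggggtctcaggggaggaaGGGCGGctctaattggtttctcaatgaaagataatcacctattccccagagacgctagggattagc
Prkg1 start at chr19:31664371-31664620: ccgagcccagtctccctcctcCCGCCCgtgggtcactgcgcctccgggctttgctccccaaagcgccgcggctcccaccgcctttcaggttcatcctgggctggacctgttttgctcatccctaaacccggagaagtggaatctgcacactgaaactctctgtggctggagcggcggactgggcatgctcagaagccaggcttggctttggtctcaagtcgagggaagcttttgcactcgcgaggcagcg
Both windows held 1 GC box, a motif found in 32.7% of 32851 such windows. Neither held TGACG (17.8% of windows), TATAAA (12.4%) or CANNTG (66.2%), searched on both strands with overlapping matches counted apart. Among the other members, the window of Kcnma1 held 3 GC boxes, that of Pde5a held 1, and those of Vasp, Mrvi1 and Ppp1r12a held none.

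Of the 14 member probes, 11 in tissue and 10 in culture had no outlier flag and exceeded the local background clearly in at least 1 channel. In tissue 2 of these 11 fell by at least 2-fold in KO and 0 rose that far, where 2.44% of all 30011 kept probes were lower and 0.926% higher. In culture 1 of 10 was lower and 1 higher, against 3.89% and 2.07% of 29161 kept probes. All 3 probe values past 2-fold and lower belonged to Prkg1, the deleted gene, and the higher one to Prkg2. Without Prkg1, none of the 8 kept probes in tissue passed 2-fold, with log2 ratios of KO over WT from -0.51 to 0.17 and a median of -0.05, against 0.02 for all kept probes. The 7 kept in culture ran from -0.37 to 1.23 with a median of -0.06, against -0.02 for all kept probes.

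**Figure D1:**
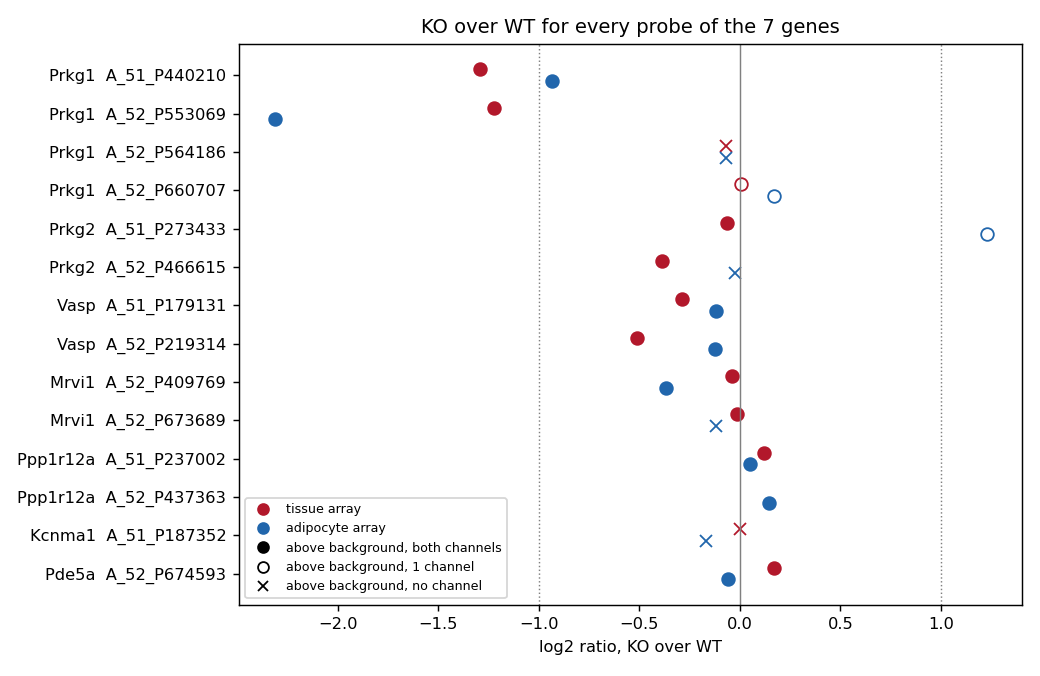
The horizontal axis gives the log2 ratio of KO over WT for each of the 14 probes, named on the vertical axis, with red for the tissue array and blue for the adipocyte array and dotted lines at 2-fold. Filled circles were well above background in both channels, open circles in 1 channel and crosses in no channel, and only Prkg1 probes lie left of -1, with Prkg2 at 1.23 in culture.

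The deleted gene Prkg1 was read by 4 probes on the minus strand of chromosome 19, at coordinates the array file gives without naming a build or an exon. In the direction of transcription, the first (A_52_P564186, accession AK051624, 31441438 to 31441497) had no channel well above background, in either genotype or source. The second (A_52_P660707, AK040353, 30408200 to 30408259) was above background only in KO, on both arrays. Its KO signal was 75.5 over a background of 54.5 in tissue and 69.7 over 44.0 in culture, at the edge of detection. Its ratios of 0.01 in tissue and 0.17 in culture showed no loss. They were 1.08 and 0.87 in the log ratio of Feature Extraction, the former past 2-fold higher in KO. Without loess they were -0.42 and 0.42, and centred on spiked-in controls -0.84 and -0.05. "At least" marks a bound in the paragraphs below. It is taken against the higher of the dim channel's own level and the lowest level among probes well above background in that channel. The bound is not a strict limit. In WT culture this second probe, not well above background, had a level of 6.45, over that lowest level of 6.18.

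The third and the fourth probe carried the difference. The third (A_51_P440210, NM_011160, 30268225 to 30268284) gave a signal of 133.5 over a background of 55.0 in KO tissue and 170.2 over 30.0 in WT tissue. In culture it gave 79.7 over 44.0 in KO and 340.8 over 57.5 in WT. On the log2 scale of normalised levels this was 7.11 in KO and 8.41 in WT tissue, and 6.80 in KO and 7.74 in WT culture, so WT stood above KO in both sources. The log2 ratio was -1.29 in tissue (2.45-fold lower in KO) and -0.94 in culture (1.91-fold lower, short of the 2-fold line). Feature Extraction gave errors of 0.29 in tissue and 0.27 in culture for its own log ratio of this probe. That ratio was further below 0 on both arrays, so these errors do not describe the values of -1.29 and -0.94.

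The fourth probe (A_52_P553069, AK052877, 30264319 to 30264378) read 99.9 over 49.0 in KO and 139.2 over 33.5 in WT tissue, and 128.3 over 48.5 in KO and 1501 over 54.0 in WT culture. These raw signals are not scaled between arrays or dyes, so their sizes cannot be compared across the 2 arrays. On the log2 scale of normalised levels the WT culture was also the highest channel. The tissue minus culture difference in WT was -1.52 on that scale. The log2 ratio of the fourth probe was -1.22 in tissue (2.33-fold lower in KO) and -2.31 in culture (4.97-fold lower). The latter was below all but 0.408% of kept probes on that array. Over both probes the mean ratio was -1.26 in tissue and -1.63 in culture, 2.39-fold and 3.09-fold lower in KO. Both probes were lower in KO with KO in Cy5 on the tissue array and in Cy3 on the adipocyte array. These arrays are not a dye swap, as their sources differ. In all 4 KO readings of this pair of probes the signal was still scored as well above background.

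The size of the Prkg1 difference moved with the processing. It was -2.22 on both arrays in the log ratio of Feature Extraction, where no offset is added to the signals. It was -0.11 in tissue when spots flagged as outliers were kept and entered the background fit; their local background reached 61344.5, against at most 232.5 in the other spots. Averaged over the 3 kept probes, including the dim second one, Prkg1 was at -0.84 in tissue and -1.03 in culture, which is why no member gene passed 2-fold in tissue by the rule used for all genes.

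**Figure D2:**
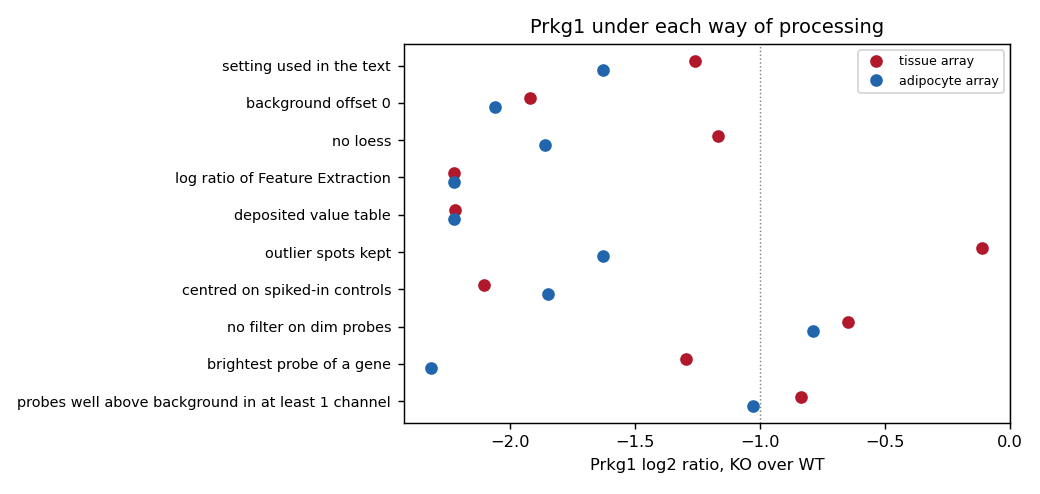
The horizontal axis gives the log2 ratio of KO over WT for Prkg1, red for the tissue and blue for the adipocyte array, under each way of processing named on the vertical axis; the dotted line marks 2-fold lower. All points lie below 0, and the tissue value is nearest to 0, at -0.11, when outlier spots are kept.

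The third and the fourth Prkg1 probe moved in opposite directions between tissue and culture. In WT, the level of the third probe was higher in tissue by 0.67 on the log2 scale, while that of the fourth was higher in culture, with a tissue minus culture difference of -1.52. In KO the differences were 0.31 and -0.43. The mean over both genotypes was 0.49 for the third and -0.98 for the fourth probe, and 0.51 and -1.11 when arrays were scaled by their medians. The SD of KO over WT ratios between repeated spots of a probe was 0.10 in tissue and 0.09 in culture. The median SD of these ratios between probes of a gene was 0.15 on both arrays. Both are spreads of ratios within an array, and no spread of levels between arrays was estimated. A genotype was labelled with different dyes on the 2 arrays, so source, dye and array cannot be told apart for a single channel.

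Prkg2 encodes PKGII, a membrane-bound kinase known from intestine, kidney, brain and cartilage. Its first probe (A_51_P273433, NM_008926, chromosome 5, 98156945 to 98158201) had levels of 7.26 in KO tissue, 7.33 in WT tissue, 7.25 in KO culture and 6.02 in WT culture, where the WT culture was not well above background. The remaining 3 channels lay within 0.10 of each other, though the spread of levels between arrays was not estimated. By the bound defined above, Prkg2 was at least 2.09-fold higher in KO in culture (measured log2 ratio 1.23), and at -0.06 in tissue. The signal behind this was small, 120.8 over a background of 48.0 in KO and 73.9 over 53.0 in WT. When both channels had to be above background, no member was at least 2-fold higher in culture.

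The other Prkg2 probe (A_52_P466615, chromosome 5, 98187944 to 98191232) did not repeat the culture reading, being not well above background there in either genotype. In tissue its levels were 6.59 in KO and 6.98 in WT, a log2 ratio of -0.39 that was -0.81 with a zero offset and -1.36, past 2-fold, in the log ratio of Feature Extraction. Set against culture, it was at least 1.46-fold higher in tissue over the mean of both genotypes.

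Vasp encodes an actin filament regulator and a classical phosphorylation marker of PKG activity. Its brighter probe (A_51_P179131, BC015289, chromosome 7, 16939880 to 16939939) had levels of 11.23 in WT tissue, 10.95 in KO tissue, 10.66 in WT culture and 10.55 in KO culture. The second (A_52_P219314, NM_009499, 16940116 to 16940282) had 9.68 in WT tissue, 9.44 in WT culture, 9.32 in KO culture and 9.16 in KO tissue. The ratios were -0.29 and -0.51 in tissue and -0.12 for both probes in culture. WT was thus the higher channel in 4 of 4 readings, all under 2-fold, and the 2 differences in culture are close to the SD between repeated spots. Without loess the brighter probe turned to 0.24 in tissue, when the median of all kept probes also moved up by 0.33, and in the log ratio of Feature Extraction the second probe was at 0.01 in culture.

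Mrvi1 encodes IRAG, the protein that ties PKGIβ to the inositol trisphosphate receptor on calcium stores. By the mean of both genotypes it was the member with the largest difference between tissue and culture. Its brighter probe (A_52_P409769, NM_010826, chromosome 7, 106783887 to 106783946) had levels of 10.84 in WT tissue, 10.80 in KO tissue, 8.61 in WT culture and 8.24 in KO culture. Tissue stood above culture in both genotypes, by 2.23 in WT and 2.56 in KO on the log2 scale, while the 2 tissue channels differed by less than the SD between repeated spots. The dimmer probe (A_52_P673689, 106839020 to 106839079) had 7.49 in KO and 7.50 in WT tissue and was not well above background in culture, so it was at least 2.22-fold higher in tissue.

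The Mrvi1 ratios of KO over WT were -0.04 and -0.01 in tissue, values whose sign changed with the processing, and -0.37 for the brighter probe in culture. Both Mrvi1 probes, and no other member probe, were at least 2-fold higher in tissue, where 17.0% of 31825 probes were. No member probe was at least 2-fold lower in tissue, where 17.2% of probes were. With arrays scaled by their medians, 4 member probes were higher and 1 lower. In bulk RNA, fewer cells of a type and less RNA per cell cannot be told apart.

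Ppp1r12a encodes MYPT1, the targeting subunit of myosin light chain phosphatase. Its brighter probe (A_51_P237002, AK077739, chromosome 10, plus strand, 107741719 to 107741778) had levels of 12.16 in KO and 12.04 in WT tissue and of 12.23 in KO and 12.18 in WT culture. All 4 channels lay close together, and the ratios were 0.12 and 0.05, with 0.05 below the SD between repeated spots. The other probe (A_52_P437363, NM_027892, 107731107 to 107731166) gave 0.14 in culture and was flagged as an outlier in tissue, where it was left out. The signs in culture turned without loess, to -0.35 and -0.24, when the median of all kept probes moved by -0.39.

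Kcnma1 encodes the pore of the large conductance calcium-activated potassium channel, opened by PKGI in smooth muscle. Its only probe (A_51_P187352, NM_010610, chromosome 14, minus strand, 20969433 to 20969492) had no channel well above background. The highest signal was 71.2 over a background of 60.0, in WT culture, so no ratio is given for Kcnma1.

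Pde5a encodes the phosphodiesterase that degrades cGMP and is itself phosphorylated by PKGI. Its probe (A_52_P674593, NM_153422, chromosome 3, plus strand, 122679359 to 122680746) had levels of 7.68 in KO tissue, 7.51 in WT tissue, 6.68 in WT culture and 6.63 in KO culture. Tissue stood above culture by 0.83 in WT and 1.05 in KO. Over both genotypes the difference was 0.94, under 2-fold, and 1.14 with arrays scaled by their medians. The ratio of KO over WT was 0.17 in tissue and -0.06 in culture, the latter below the SD between repeated spots.

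**Figure D3:**
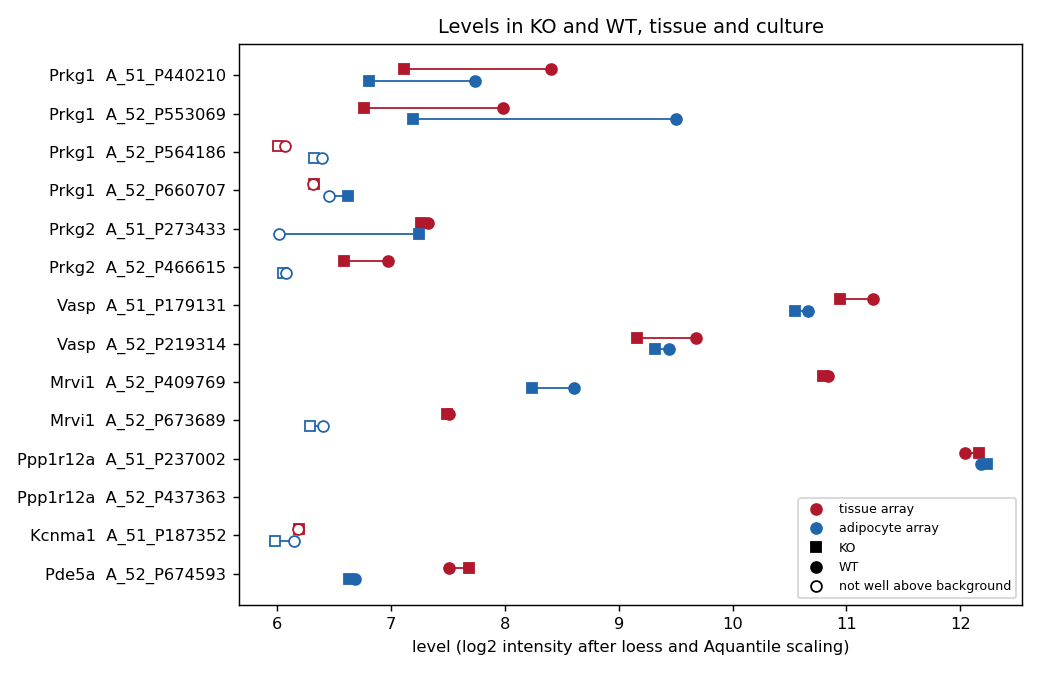
The horizontal axis gives the log2 level, after loess and Aquantile scaling (which sets the average intensities of both arrays to the same distribution), for KO (squares) and WT (circles) on the tissue (red) and adipocyte (blue) arrays; open symbols were not well above background, and levels of different probes are not comparable. WT and KO are far apart for the Prkg1 probes A_51_P440210 and A_52_P553069. They are also far apart in culture for Prkg2 A_51_P273433, with WT not well above background. Tissue and culture are far apart for Mrvi1. No level is shown for Ppp1r12a A_52_P437363, left out in tissue.

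Genes whose pair of ratios lay nearest to that of Prkg1 were sought among 11092 genes with all kept probes above background in both channels on both arrays. The nearest by Euclidean distance over the 2 arrays was Slco4a1, an organic anion transporter, at -1.27 in tissue and -1.51 in culture, a distance of 0.12. Agpat2, an enzyme of phospholipid and triglyceride synthesis, stood at -1.38 and -1.78 (distance 0.19). Arc (0.26), Mccc1, a subunit of an enzyme of leucine breakdown (0.27), and 2010003K11Rik (0.27) followed. A fall of at least 2-fold on both arrays was seen in 30 of these genes, or 0.270%.

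The list of relatives of the members (other Ena/VASP proteins, myosin phosphatase subunits, channel subunits, phosphodiesterases and kinase subunits) had 13 of 19 genes kept in tissue and 12 in culture. The potassium channel gene Kcnn2 was the only gene at least 2-fold different in KO tissue, being lower, where 2.44% of 15616 genes were lower and 0.8% higher, and the list median was 0.00, the same as that of all genes. Its probes were at -0.38 and -1.72, so the mean of -1.05 rests on the second, and it was -0.09 with outlier spots kept. In culture, where 2.49% of 15115 genes were higher and 4.17% lower, Kcnmb4, a beta subunit of the channel formed by Kcnma1, was higher at 2.12 (4.33-fold), with levels of 10.13 in KO and 8.01 in WT. Kcnn2 was at 1.08 there, at least 2.10-fold higher in KO with WT not above background, and at 0.86 when centred on spiked-in controls. That culture value comes only from the probe at -0.38 in tissue, as the other was not kept. Lrmp (Irag2), the relative of Mrvi1, was lower at -1.10, and the list median was 0.02.

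Other substrates and partners of PKG had 19 of 23 genes kept on each array, with medians of -0.19 in tissue and 0.12 in culture that turned to 0.21 and -0.12 without loess. Rgs2, a regulator of G protein signalling that PKGI phosphorylates, passed 2-fold on both arrays in opposite directions. In tissue its ratios were 2.49 and 1.29 for its 2 probes, with levels of 17.01 in KO against 14.53 in WT and of 11.89 against 10.60. In culture they were -2.17 and -1.01, with 12.44 in KO against 14.61 in WT and 7.31 against 8.31. KO was in Cy5 where Rgs2 was higher and in Cy3 where it was lower, so source and dye cannot be told apart. Ppp1r14a, the myosin phosphatase inhibitor CPI-17, was the only other gene of this list past 2-fold, at 1.23 in culture and 0.92 there without loess.

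Itpr1, the calcium channel that IRAG binds, was singled out after its values were seen, as it did not pass 2-fold. It was lower in KO by 0.78 and 0.58 on the log2 scale in tissue and by 0.59 and 0.81 in culture. All 4 readings, of 2 probes on 2 arrays, were on the same side. The arrays are not a dye swap, as their sources differ, and dye bias was not tested. Without loess the gene stood at -0.10 in tissue and -1.11 in culture.

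The list of myosin phosphatase and light chain genes, all 17 of which were kept on both arrays, had no gene past 2-fold in tissue, with a median of -0.18 that was 0.34 without loess. The 2 largest ratios there were those of Myl9, the smooth muscle myosin light chain, at -0.64 and Ppp1r14a at -0.45. In culture Myl9 was higher at 1.70 (3.25-fold) and Ppp1r14a at 1.23, and the list median was 0.26, or -0.16 without loess. Smooth muscle markers moved alongside, and Myl9 is among them. In culture 6 of 11 kept markers were at least 2-fold higher in KO, with a median of 1.16 and a summed level of 364076 in KO against 98559 in WT, while in tissue 2 of 12 were lower, with a median of -0.52 (-0.01 without loess) and 56466 against 93823. Their part in these results was not tested.

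Among 18 genes that make cGMP or its hormone signals, 13 were kept in tissue and 11 in culture, with medians of 0.05 and 0.09, which were -0.79 and -0.13 when centred on spiked-in controls. None passed 2-fold in tissue, where the natriuretic peptide gene Nppa was at 0.65 and the clearance receptor gene Npr3 at -0.61. In culture Gucy1b1, the beta subunit of the nitric oxide receptor soluble guanylyl cyclase, was higher at 1.36 (2.56-fold), with its 3 probes between 1.22 and 1.46, and it was at 0.95 without loess. The same gene was at -0.16 in tissue.

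Other targets of cGMP and enzymes of its breakdown had 14 of 16 genes kept on each array, with medians of 0.05 in tissue and 0.00 in culture, or -0.79 and -0.22 when centred on spiked-in controls. None passed 2-fold in tissue, where the largest were the channel gene Cnga2 at 0.38 and the transporter gene Abcc5 at -0.34. In culture Pde3b, the cGMP-inhibited phosphodiesterase of adipocytes, was lower at -1.36 and Pde1b, a calmodulin-dependent one, at -1.14. In tissue they were at 0.08 and -0.08.

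**Figure D4:**
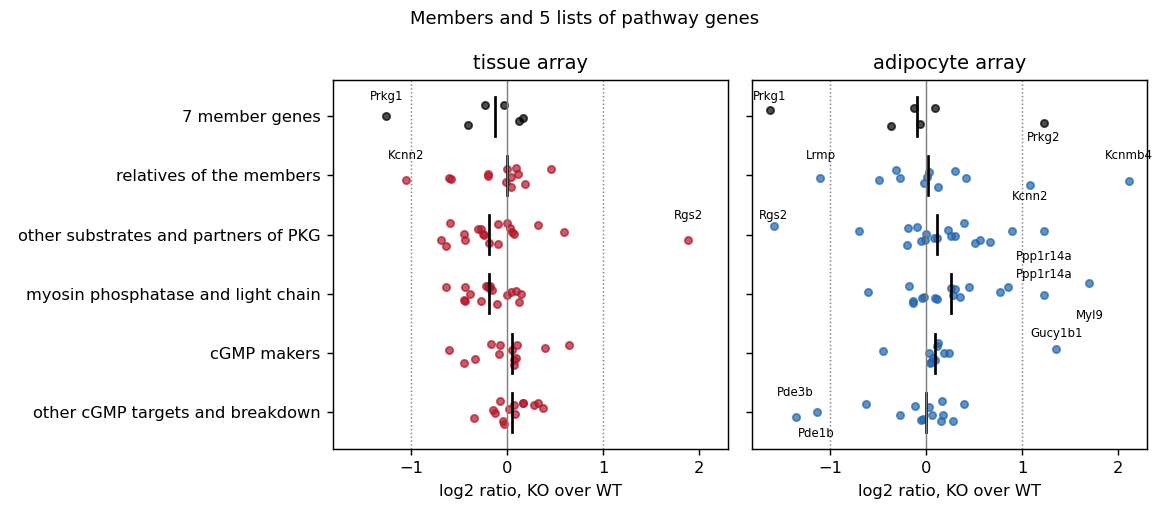
Each point is a gene, placed by its log2 ratio of KO over WT on the horizontal axis, for the members and 5 lists of pathway genes on the vertical axis, with the tissue array on the left and the adipocyte array on the right; black bars are medians, dotted lines mark 2-fold, genes past it are named, and Prkg1 is the mean of its 2 probes above background in both channels. The list medians lie between -0.19 and 0.26, with signs that turn under other scalings, and Rgs2 lies to the right in tissue and to the left in culture.

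The samples compared differed in markers of cell types beside the members. In culture the KO was lower at least 2-fold in 12 of 12 mature adipocyte markers (median -3.48, summed level 33710.4 in KO and 623675 in WT), 5 of 9 brown adipocyte markers (median -1.14) and 8 of 10 macrophage markers (median -1.79). In tissue the KO was lower at least 2-fold in 16 of 17 skeletal muscle markers, with a median of -2.39 and a summed level of 97999 against 560362 in WT, all 17 being above background in both. Of the brown adipocyte markers in tissue, 4 of 9 passed 2-fold toward lower in KO and 1 toward higher, with a median of -0.35 that was 0.17 without loess. Of 11 kept mature adipocyte markers in tissue 1 was at least 2-fold higher, and of 16 kept skeletal muscle markers in culture 1 was higher. Of the defining adipocyte markers, 11 of 12 were above background in both tissue samples and in KO culture, and 12 in WT culture. Endothelial, fibroblast and platelet markers had no gene past 2-fold on either array, with medians between -0.32 and 0.16. Of 8 neuron and Schwann cell markers, 1 was lower in KO tissue and 1 higher in KO culture. The part of these differences in the ratios of Prkg1, Prkg2, Rgs2, Gucy1b1, Pde3b and the others was not tested.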

How the data were processed

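RNA was extracted with Trizol and labelled with the Agilent Low RNA Input kit, per the labels' protocols. Each deposited scanner file gives the intensity of every spot and of its local background in both dyes, from Agilent Feature Extraction 9.5.1.1, protocol GE2-v5_95_Feb07, per the file headers, together with its log10 ratio and the error of that ratio. The authors' deposited value table also holds log10 ratios, which matched Feature Extraction's, turned to KO over WT, within 0.0165 on the log2 scale. It held no value for 7623 tissue and 6968 adipocyte gene spots, and its medians were 0.09 and 0.02. Its scale and direction are thus known, and the reason for the empty spots is not stated.

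With limma 3.58.1 in R 4.3.3, spots with an outlier flag (1215 tissue and 203 adipocyte gene spots of 43379) were left out, background was corrected by normexp (offset 50) with control spots included, and ratios were normalised by loess with weight 0 for the 1639 controls. Levels are log2 intensities after Aquantile scaling. Kept probes were those that Feature Extraction scored well above background in KO, WT or both, and 63.1% to 74.1% of gene spots were so scored in a channel. A gene is the mean of its kept probes, and Prkg1 that of its probes above background in both channels. Ratios of dim probes are pulled toward 0 by the offset. Differences were counted at 2-fold. Python 3.11.15 and pandas 2.3.3 made the counts. The step from signals to ratios was tested on simulated data with changes in brighter spots only, so not for dim probes. The number of arrays limits the precision.

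Probes were named through the RefSeq gene table of GRCm38.p6 by accession (22951 probes), symbol (6659) or unique synonym (3109), and 8455 stayed unnamed. Named are all member probes, the genes of each pathway list past 2-fold or else the 2 largest, and the 5 genes nearest Prkg1. Marker lists are given as counts and medians. The members and lists were chosen with earlier results of these data known. Alternatives were a zero offset, no loess, Feature Extraction's ratio, the deposited table, outlier spots kept, other filters and probe rules, median scaling of levels and, added after seeing the data, centring on spiked-in controls and averaging Prkg1 over all kept probes.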

Additional observations from a re-analysis of the deposited data

Results flagged for a closer look

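Rgs2 moved in opposite directions on the 2 arrays, at 1.89 on the log2 scale in tissue and -1.59 in culture, with both of its probes on the same side on each array. Kcnn2 also took opposite signs, at -1.05 in tissue and 1.08 in culture, where WT was not well above background. The culture value rests on probe A_51_P309854 alone, which was at -0.38 in tissue. The tissue mean rests on A_52_P121486, at -1.72, which was not kept in culture, and it was -0.09 with outlier spots kept. Neither the Rgs2 nor the Kcnn2 difference between the sources was tested, as each source rests on 1 array.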

How the results depend on the processing

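No paired analysis was possible because each comparison is 1 array, and for the same reason no replicate could be left out. No value past 2-fold in the processing used for the text reversed under any alternative run. The dim Prkg1 probe A_52_P660707, under 2-fold by that processing in tissue, ran from 1.08 in Feature Extraction's ratio to -0.84 centred on spiked-in controls. Prkg1 in tissue (-1.26) was -1.92 with a zero offset, -2.22 both in Feature Extraction's ratio and in the deposited table, -0.11 with outlier spots kept, -2.10 centred on spiked-in controls, -0.64 with no filter on dim probes and -0.84 over probes above background in at least 1 channel. Prkg1 in culture (-1.63) was -2.06, -2.22 and -2.22 under the first 3 of these, -1.86 without loess, -1.85 centred on spiked-in controls, -0.79 with no filter, -2.31 for its brightest probe and -1.03 over probes above background in at least 1 channel.

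The 2 lower member probes in tissue became 0 with outlier spots kept and 5 centred on spiked-in controls. That centring shifts the tissue ratios by 0.84 and the culture ratios by 0.22 toward lower in KO. The 2 became 3 in Feature Extraction's ratio and in the deposited table, where a Prkg2 probe joined them. The 0 higher became 1 in Feature Extraction's ratio and in the deposited table, through the dim Prkg1 probe A_52_P660707. In culture the 1 higher probe became 0 when both channels had to be above background, and the 1 lower became 2 with a zero offset, without loess, in Feature Extraction's ratio, in the deposited table and centred on spiked-in controls. Member probes at least 2-fold higher in tissue than in culture went from 2 to 4, and lower from 0 to 1, with arrays scaled by their medians. Without loess the signs of 4 of 11 kept member probes turned in tissue and of 3 of 10 in culture, and centred on spiked-in controls those of 3 on each array.

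Over all genes in tissue, 125 higher became 385 (zero offset), 672 (no loess), 1402 (Feature Extraction), 1398 (deposited table), 38 (outlier spots kept) and 17 (spiked-in controls), and 381 lower became 835, 950 (Feature Extraction), 951 (deposited table), 98 (outlier spots kept) and 4576 (spiked-in controls). In culture 377 higher became 617 (zero offset), 194 (no loess), 876 (Feature Extraction), 874 (deposited table) and 205 (spiked-in controls), and 631 lower became 1246 (no loess), 956 (Feature Extraction), 954 (deposited table) and 974 (spiked-in controls). Signal over background limits Prkg1, Prkg2, Kcnma1 and Pde5a.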
